A study of Mus musculus with 9 samples.

Results

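The 10 genes described here are nuclear genes that control the making of mitochondria and the copying and reading of mitochondrial DNA (mtDNA). They were examined in SIX2 nephron progenitors of mice in which the complex III subunit QPC was inactivated in these cells. They were chosen by name and are the 3 PGC-1 coactivators *Ppargc1a*, *Ppargc1b* and *Pprc1*, the transcription factors *Nrf1*, *Gabpa* and *Esrra*, the mtDNA-binding factor *Tfam*, the mitochondrial RNA polymerase *Polrmt*, and the mtDNA polymerase subunits *Polg* and *Polg2*. All 10 were found among the 26858 genes of the count table, and all 10 passed the filter on low counts. Cells that carried the *Six2-eGFP/cre* transgene, in which Six2 regulatory sequence drives a fusion of eGFP and Cre, were sorted by eGFP from kidneys at E18.5 (late gestation). Control cells came from heterozygous *Six2-Qpc*+/- embryos (n = 4, replicates 71, 72, 73 and 76) and mutant cells from *Six2-Qpc*-/- embryos (n = 5, replicates 74, 75, 77, 78 and 79). The controls thus also expressed Cre and carried 1 inactivated *Qpc* allele, and no library from a kidney without Cre was compared. The labels name no litter, sex or batch, and p-values measure only the spread between these libraries.

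Mitochondria keep a small genome of their own, but the proteins that copy and transcribe it are encoded in the nucleus. Coactivators of the PGC-1 family bind no DNA themselves and raise the activity of factors such as NRF1, GABPA and the estrogen-related receptor ESRRA, which switch on nuclear genes for respiratory chain subunits and for TFAM. TFAM packages mtDNA and opens its promoters for POLRMT, whereas POLG and its accessory subunit POLG2 form the replicative polymerase. In the kidney this program is best known from the proximal tubule, a segment with dense mitochondria, and nephron progenitors are regarded as relatively glycolytic.

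Start-site sequence was available from RefSeq (GRCm38.p6) for 9 of the 10 genes, and *Ppargc1b* is named only. The 250 bases before the start are shown for *Pprc1*, whose transcript rose, for *Polrmt*, which held both an NRF1 and an ETS match, and for *Polg2*, the member whose libraries did not overlap between genotypes in TMM-scaled CPM (they did in FPKM). Each is written 5′ to 3′ on the strand of its gene, with matches in capitals. They lie at chr19:46056289-46056538 on the plus strand for *Pprc1*, at chr10:79746582-79746831 on the minus strand for *Polrmt* and at chr11:106779538-106779787 on the minus strand for *Polg2*. The RefSeq starts of *Pprc1*, *Tfam*, *Gabpa*, *Polg* and *Esrra* and 1 of those of *Nrf1* lie inside the spans that the count table gives. The matches listed below for *Tfam*, *Gabpa* and *Polg* fall inside those spans too. Exons of the gene itself cover 236 bases of the *Tfam* window, 99 of the *Gabpa* window and 89 of the *Polg* window. Exons of *Atp5j* cover all 250 bases of the *Gabpa* window.
Pprc1: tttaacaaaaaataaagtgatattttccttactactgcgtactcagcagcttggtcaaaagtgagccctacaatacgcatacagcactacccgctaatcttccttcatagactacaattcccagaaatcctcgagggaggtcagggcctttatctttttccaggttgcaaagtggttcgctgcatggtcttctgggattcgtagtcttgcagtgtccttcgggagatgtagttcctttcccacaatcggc
Polrmt: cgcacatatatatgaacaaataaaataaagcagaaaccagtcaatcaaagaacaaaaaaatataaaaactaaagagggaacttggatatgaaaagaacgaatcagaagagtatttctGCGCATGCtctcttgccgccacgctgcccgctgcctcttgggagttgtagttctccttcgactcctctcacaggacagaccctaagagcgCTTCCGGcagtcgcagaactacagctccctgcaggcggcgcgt
Polg2: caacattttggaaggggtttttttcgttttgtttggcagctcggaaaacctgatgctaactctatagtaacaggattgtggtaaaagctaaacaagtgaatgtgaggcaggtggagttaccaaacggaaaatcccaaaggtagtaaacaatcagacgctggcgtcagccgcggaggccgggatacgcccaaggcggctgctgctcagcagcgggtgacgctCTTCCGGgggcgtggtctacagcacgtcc
Both strands were searched for 6 motifs, and no matches overlapped each other. The NRF1 core GCATGCGC was found in 2.26% of 32851 promoter windows of this length and, among the members, in *Polrmt* (133 to 126 bases before the start) and *Esrra* (34 to 27 bases before the start). The ETS core CCGGAAG, the letters that GABPA binds, was found in 6.91% of windows and in *Tfam* (47 to 41 bases before the start), *Polrmt* (43 to 37), *Polg* (38 to 32), *Polg2* (29 to 23) and *Gabpa* itself (93 to 87). The ERR site TNAAGGTCA (1.14% of windows), the cAMP response element TGACGTCA (1.55%), the E-box CACGTG (6.02%) and the ATF4 and C/EBP composite TGATGNAAT (0.816%) had no match in any member window. *Pprc1*, *Ppargc1a* and *Nrf1* held none of the 6 motifs in these letters.

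The libraries held between 22571729 and 23691130 counts in control and between 21040536 and 23986458 in mutant cells. Transcripts of the targeted gene *Uqcrq*, which encodes QPC, fell from 94.1 ± 13.3 to 21.3 ± 4.45 counts per 1000000 counts of the TMM-normalized library size (CPM; SD, n = 4 and 5), with no overlap between genotypes (log2 fold change -2.14, SE 0.16, edgeR adjusted p = 2.09e-05). The progenitor marker *Six2* stood at 571 ± 53.4 and 704 ± 102 CPM. None of 11 nephron progenitor markers passed the test, and their summed level was 2338 to 2845 CPM in control and 2335 to 2803 CPM in mutant cells. Ureteric bud genes *Ret* and *Wnt9b* had at most 13 and 7 reads in any library. They do not stand for the whole list of 8 ureteric bud markers. Its summed level was 63.29 to 90.02 CPM in control and 54.22 to 94.95 CPM in mutant cells. Markers of other cells did move with genotype, where 14.8% of all genes tested passed in either direction. The summed level of 9 stroma markers was 100 to 173 CPM in control and 235 to 668 CPM in mutant cells, and 6 of the 8 tested were higher. That of 6 macrophage markers was 2.39 to 10.5 against 9.72 to 113 CPM, with 2 of 5 tested higher, and that of 10 committed nephron markers was 377 to 725 against 280 to 414 CPM, with 3 of 10 lower. Of 3 tested endothelial markers 1 was higher, and no tested marker of podocytes (4), ureteric bud (4), proximal tubule (2) or erythroid cells (1) passed. In bulk libraries fewer cells of a type and less RNA per cell cannot be told apart, and the part of these cells in the changes below was not tested.

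Of the 10 regulators 2 changed, and both are coactivators. *Pprc1* rose 1.83-fold and *Ppargc1b* fell to 0.552 of its control level, whereas the factors, the RNA polymerase and the DNA polymerase subunits did not pass the test. This is 20% of the members, beside 14.8% of all 14990 genes tested (edgeR quasi-likelihood test, Benjamini-Hochberg adjusted p under 0.05), of which 1172 (7.82%) were higher and 1053 (7.02%) lower. Of the 10 log2 fold changes 6 were positive and 4 negative, and their median was 0.07 against -0.01 over all genes tested.

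**Figure D1:**
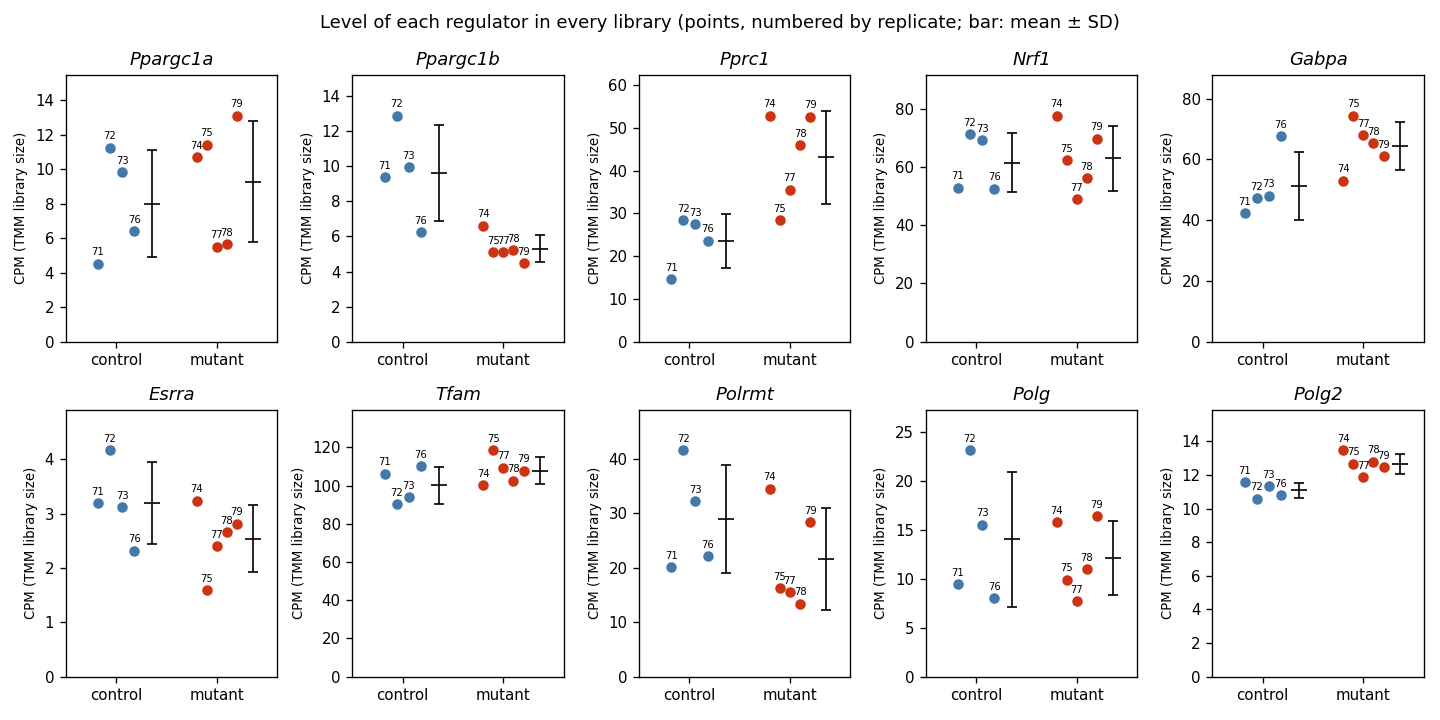
Level of each of the 10 regulators in CPM (y axis, from 0, 1 scale per gene) in 4 control (blue) and 5 mutant (red) libraries, numbered by replicate, with the mean and SD beside them. *Pprc1* sits higher and *Ppargc1b* lower in mutant cells, each with overlap at 1 library, and *Polg2* is the gene without overlap on this scale.

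*Pprc1* encodes PRC, a PGC-1-related coactivator that is induced by growth signals in dividing cells. The gene lies on chromosome 19 (46044886 to 46072915, plus strand, GRCm38). Its control libraries had 14.6, 28.4, 27.4 and 23.6 CPM (replicates 71, 72, 73 and 76), and its mutant libraries had 52.8, 28.4, 35.6, 46.0 and 52.6 CPM (replicates 74, 75, 77, 78 and 79). Of the 5 mutant libraries 4 lay above every control library, and mutant replicate 75 lay just below control replicate 72. The mean rose from 23.5 ± 6.28 CPM (SD, n = 4) to 43.1 ± 10.8 CPM (SD, n = 5), a log2 fold change of 0.87 (SE 0.22, 95% interval 0.39 to 1.36, edgeR adjusted p = 0.0219), and the exact permutation test over libraries gave p = 0.0238 (2-sided). Between 343 and 1240 reads stood behind each value. Exons of *Ldb1* on the opposite strand cover 2.82% of the exon bases of *Pprc1*, and *Ldb1* itself stood at 86.2 and 82.1 CPM. The summed stroma markers of the mutant libraries, in the same order, were 417, 668, 235, 264 and 322 CPM. The call was lost without control replicate 71 (log2 fold change 0.70, edgeR adjusted p = 0.0574), and it held under the other 17 alternatives, with adjusted p from 0.00144 to 0.0490.

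*Ppargc1b* encodes PGC-1beta, a coactivator of basal mitochondrial content and of lipid metabolism, and carries the microRNA gene *Mir378a* within an intron. It lies on chromosome 18 (61298136 to 61400431, minus strand). The control libraries had 9.37, 12.9, 9.95 and 6.24 CPM and the mutant libraries 6.61, 5.09, 5.10, 5.21 and 4.49 CPM, in the replicate order given for *Pprc1*. Of the 5 mutant libraries 4 lay below every control library, and mutant replicate 74 lay above control replicate 76. The mean fell from 9.61 ± 2.72 to 5.30 ± 0.782 CPM (log2 fold change -0.86, SE 0.23, 95% interval -1.35 to -0.37, edgeR adjusted p = 0.0253). The exact permutation test gave p = 0.0159, again not adjusted for the number of members. Reads per library ranged from 99 to 331. No annotated exon of another gene overlaps those of *Ppargc1b*. The call was lost under 7 of 18 alternatives, that is, without control replicate 71 (-0.87, adjusted p = 0.0543), 72 (-0.68, adjusted p = 0.0948) or 73 (-0.84, adjusted p = 0.0724) and without mutant replicate 78 (-0.85, adjusted p = 0.0545) or 79 (-0.80, adjusted p = 0.0532), and with a surrogate variable (adjusted p = 0.0590) or a Y-linked covariate (adjusted p = 0.0610) in the edgeR model. Its sign was negative in all 18 alternatives, with adjusted p from 0.00371 to 0.0948.

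*Ppargc1a* encodes PGC-1alpha, the inducible member that raises mitochondrial mass in muscle, brown fat and proximal tubule. It lies on chromosome 5 (51454249 to 51567725, minus strand). Control libraries had 4.52, 11.3, 9.82 and 6.41 CPM, and mutant libraries 10.7, 11.4, 5.51, 5.66 and 13.1 CPM. Each genotype held both low and high libraries, and the ranges overlapped almost wholly. Its log2 fold change was 0.21 (SE 0.32, 95% interval -0.48 to 0.91, edgeR adjusted p = 0.692), so that neither a 1.88-fold rise nor a fall to 0.717 lies outside the interval. It was 0.019 without control replicate 71 and 0.42 without control replicate 72.

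The relative amounts of the 3 coactivators therefore differed between genotypes as a description of the same reads. Per length, in the deposited FPKM (reads relative to gene length and library size), *Pprc1* made up 53.6 ± 7.01% (46.1 to 62.5%) of the summed family level in control cells and 73.5 ± 6.07% (63.1 to 79.2%) in mutant cells. *Ppargc1b* made up 32.0 ± 7.93% (23.7 to 42.4%) and 13.4 ± 2.73% (9.25 to 16.3%), and *Ppargc1a* 14.4 ± 2.22% and 13.1 ± 5.06%. The ratio of *Pprc1* to *Ppargc1b* was 1.09, 1.53, 1.92 and 2.64 in the control libraries and 5.58, 3.88, 4.86, 6.15 and 8.16 in the mutant libraries. Neither share of *Pprc1* and *Ppargc1b*, nor their ratio, overlapped between genotypes, although each gene alone overlapped at 1 library. A ratio of 2 genes called in opposite directions separates more readily than either gene. No test was made of these shares, since the calls of both genes are already in them.

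*Nrf1* encodes nuclear respiratory factor 1, which binds promoters of respiratory chain genes and of *Tfam* (chromosome 6, 30047988 to 30153458, plus strand). It had 52.9, 71.2, 69.2 and 52.6 CPM in control and 77.7, 62.4, 49.1, 56.1 and 69.8 CPM in mutant cells. Both genotypes spanned nearly the same range. The log2 fold change of 0.04 (SE 0.15, 95% interval -0.30 to 0.37, edgeR adjusted p = 0.900) changed sign under 6 of the 18 alternatives.

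*Gabpa* encodes the DNA-binding subunit of GABP, also called nuclear respiratory factor 2 (chromosome 16, 84834925 to 84863779, plus strand). Control libraries had 42.3, 47.2, 48.1 and 67.7 CPM, and mutant libraries 53.1, 74.5, 67.9, 65.4 and 61.1 CPM. All 5 mutant libraries lay above the control mean, but control replicate 76 lay among them. The log2 fold change was 0.33 (SE 0.15, 95% interval -0.00 to 0.65, edgeR adjusted p = 0.159). Without control replicate 76 it was 0.50 (adjusted p = 0.0335), with limma-voom and sample quality weights, which called 32.4% of all genes, 0.41 (adjusted p = 0.0216), and with a trend on GC content and gene length removed 0.11 (adjusted p = 0.540). Exons of *Atp5j* on the opposite strand cover 6.98% of its exon bases, and *Atp5j*, a subunit of ATP synthase, stood at 293 and 255 CPM (edgeR adjusted p = 0.321).

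*Esrra*, the orphan receptor through which PGC-1 coactivators reach many oxidative genes, was the member with the fewest reads (chromosome 19, 6910977 to 6921813, minus strand). It had 36 to 107 reads per library, or 3.20, 4.17, 3.12 and 2.32 CPM in control and 3.24, 1.59, 2.40, 2.66 and 2.81 CPM in mutant cells. Mutant replicate 75 was below all other libraries, and the remaining 4 mutant libraries lay within the control range. On the log2 scale the difference was -0.33 (SE 0.29, 95% interval -0.95 to 0.28, edgeR adjusted p = 0.460), so a fall to 0.518 of the control level was within the interval. *Trmt112* shares 1.66% of the exon bases of *Esrra* on the opposite strand.

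*Tfam* had the most reads of the 10 genes (chromosome 10, 71225464 to 71238280, minus strand). Control libraries had 106, 90.2, 93.8 and 110 CPM and mutant libraries 100, 118, 109, 103 and 108 CPM. The genotypes overlapped. With 2084 to 2675 reads per library, the log2 fold change was 0.11 (SE 0.11, 95% interval -0.12 to 0.34, edgeR adjusted p = 0.541), and the upper bound of the interval is a 1.26-fold rise.

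*Polrmt* transcribes both strands of mtDNA and makes the primers for its replication (chromosome 10, 79736123 to 79746581, minus strand). Control libraries had 20.1, 41.6, 32.2 and 22.1 CPM, and mutant libraries 34.5, 16.2, 15.5, 13.4 and 28.4 CPM. Mutant replicates 75, 77 and 78 lay below every control library, and replicates 74 and 79 lay inside the control range. Its log2 fold change was -0.42 (SE 0.29, 95% interval -1.06 to 0.21, edgeR adjusted p = 0.349). Leaving out mutant replicate 74 gave -0.66 and leaving out control replicate 72 gave -0.20, neither past the threshold, and limma-voom with sample quality weights gave -0.78 (adjusted p = 0.0261), whereas a surrogate variable gave -0.05 (adjusted p = 0.845).

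*Polg* encodes the catalytic subunit of the mtDNA polymerase (chromosome 7, 79448791 to 79466362, minus strand). It had 9.46, 23.1, 15.5 and 7.97 CPM in control and 15.8, 9.87, 7.70, 11.0 and 16.4 CPM in mutant cells. Control replicate 72 was the highest of all 9 libraries, and the mutant libraries otherwise covered the control range. A log2 fold change of -0.21 was fitted (SE 0.31, 95% interval -0.87 to 0.46, edgeR adjusted p = 0.692), and it changed sign without control replicate 72 (0.14). In the GENCODE M21 annotation *Fanci*, a DNA repair gene on the opposite strand, covers 8.57% of the exon bases of *Polg*. This is the largest such overlap among the members in that annotation. The span counted for *Polg* starts 2560 bases inside the annotated one, so the overlap in the counted exons may be smaller. *Fanci* stood at 7.98 and 4.51 CPM (log2 fold change -0.82, edgeR adjusted p = 0.0565). Where counted exons overlap, reads of the pair could not be told apart.

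*Polg2*, the processivity subunit of the same polymerase, had close values within each genotype on 233 to 316 reads per library (chromosome 11, 106768253 to 106779537, minus strand). Control libraries had 11.6, 10.6, 11.3 and 10.8 CPM and mutant libraries 13.5, 12.7, 11.9, 12.8 and 12.5 CPM. Every mutant library lay above every control library, and the genotypes did not overlap, in either direction, for 15.2% of all genes tested. This separation depended on the TMM library sizes, since in the deposited FPKM the ranges were 3.98 to 4.37 in control and 4.06 to 5.09 in mutant cells, with overlap. The means were 11.1 ± 0.462 and 12.7 ± 0.571 CPM. The exact permutation test gave p = 0.0159 (the smallest that 4 against 5 libraries allow is 0.00794, and 10 members were examined), but the log2 fold change of 0.19 (SE 0.15, 95% interval -0.13 to 0.51) did not pass the edgeR test, whose spread is partly shared across genes (adjusted p = 0.407). *Milr1* on the opposite strand covers 3.03% of its exon bases and was itself near 0 (0.209 and 1.01 CPM). The ratio of *Polg* to *Polg2* in FPKM was 0.382 to 1.13 in control and 0.335 to 0.679 in mutant cells, with overlap.

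**Figure D2:**
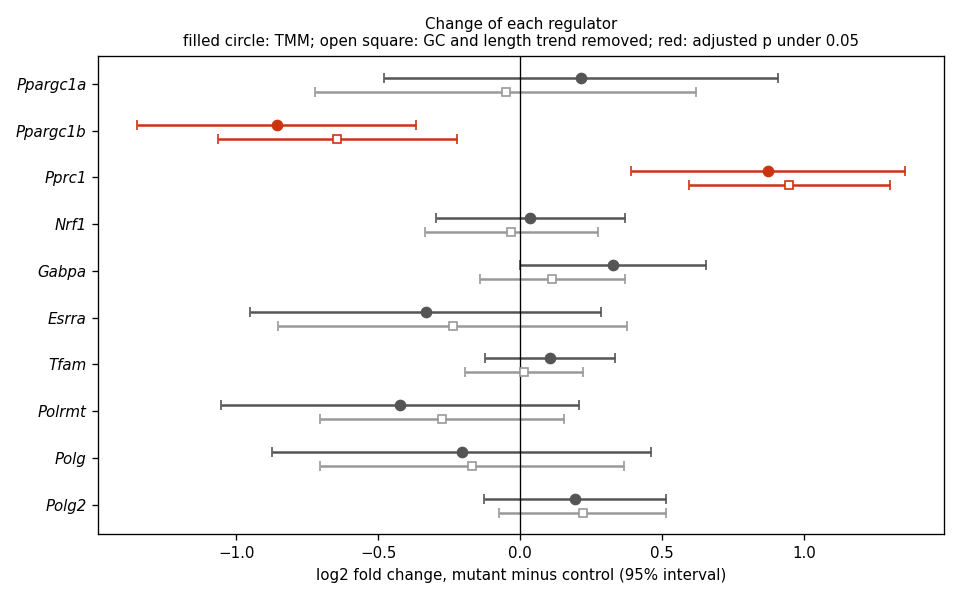
Log2 fold change, mutant minus control, with its 95% interval for the 10 regulators (x axis, log2 units). Filled circles are edgeR with TMM normalization, open squares the same fit after removal of a per-library trend on GC content and gene length, and red marks adjusted p under 0.05. *Pprc1* (0.87 and 0.95) and *Ppargc1b* (-0.86 and -0.65) are red in both.

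Compared per length, *Tfam* led in both genotypes at 24.8 ± 1.51 FPKM in control and 25.1 ± 1.46 FPKM in mutant cells. It was followed by *Nrf1* (15.8 and 15.2 FPKM) and *Gabpa* (10.6 and 12.5 FPKM). In control cells *Polrmt* (7.07 FPKM), *Pprc1* (4.67), *Polg2* (4.21), *Polg* (2.79), *Ppargc1b* (2.74), *Esrra* (1.49) and *Ppargc1a* (1.30) came next, and of all neighbours in this order the ranges of *Tfam* and *Nrf1* alone were apart. In mutant cells *Pprc1* (8.03 FPKM) stood before *Polrmt* (4.97), and the order ended with *Ppargc1b* (1.41), *Ppargc1a* (1.41) and *Esrra* (1.11). There the ranges of *Gabpa* and *Pprc1*, and of *Polg2* (4.51) and *Polg* (2.26), were apart as well as those of *Tfam* and *Nrf1*. In both genotypes the 3 coactivators and *Esrra* lay below *Tfam*, *Nrf1* and *Gabpa*. FPKM were not adjusted for library composition, and all members kept their rank when TMM library sizes were used.

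**Figure D3:**
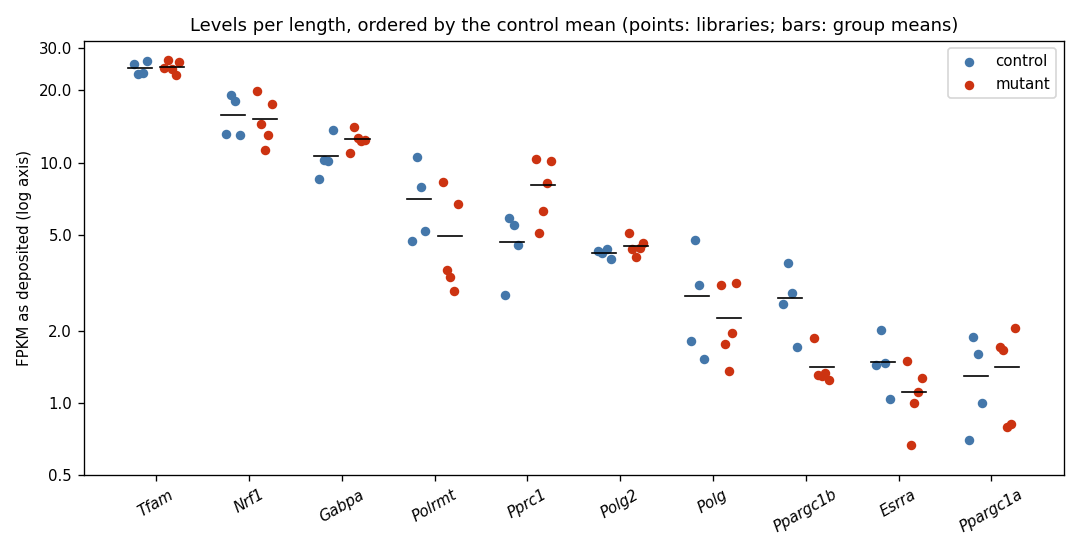
Deposited FPKM (y axis, log scale) of the 10 regulators in each control (blue) and mutant (red) library, ordered by the control mean, with bars at the group means. *Tfam* leads at about 25 FPKM in both genotypes, and *Pprc1* and *Ppargc1b* are displaced between them in opposite directions.

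Within each genotype the libraries varied together over most members. Control replicate 72 was the highest control library for 7 of 10 genes, namely all but *Gabpa*, *Tfam* and *Polg2*, and mutant replicate 74 was the highest mutant library for 6 (*Ppargc1b*, *Pprc1*, *Nrf1*, *Esrra*, *Polrmt* and *Polg2*). *Tfam* went the other way and was lowest in both, and *Gabpa* was lowest in mutant replicate 74. The same 2 libraries stood apart by base composition. The 10% of genes with the highest GC content deviated from the genotype mean by a median of 0.16 log2 units in control replicate 72 and 0.25 in mutant replicate 74, against -0.13 to 0.08 in the other 7. Libraries also differed by gene length. The shortest 10% of genes deviated by a median of -0.23 in control replicate 72 and 0.22 in control replicate 71. In mutant replicates 74 and 79 their median deviation was -0.13 and -0.16. The GC content of the longest annotated transcript was 60.5% for *Polrmt*, 57.8% for *Ppargc1b*, 55.9% for *Pprc1*, 52.7% for *Polg*, 50.3% for *Esrra*, 46.7% for *Polg2*, 45.4% for *Nrf1*, 44.9% for *Tfam*, 41.7% for *Ppargc1a* and 41.4% for *Gabpa*. *Polrmt*, *Ppargc1b*, *Pprc1*, *Polg* and *Esrra*, the first in this order, were all highest in control replicate 72. So were *Nrf1* and *Ppargc1a*, which come later in it. The part of base composition or gene length in the deviations of the members was not tested. After removal of a per-library trend on GC content and gene length, an alternative chosen after this was seen, the log2 fold change of *Pprc1* was 0.95 (SE 0.16, edgeR adjusted p = 0.00260) and that of *Ppargc1b* -0.65 (SE 0.19, adjusted p = 0.0351). The other 8 members lay between -0.28 and 0.22 and did not pass, where 19.5% of all genes did.

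**Figure D4:**
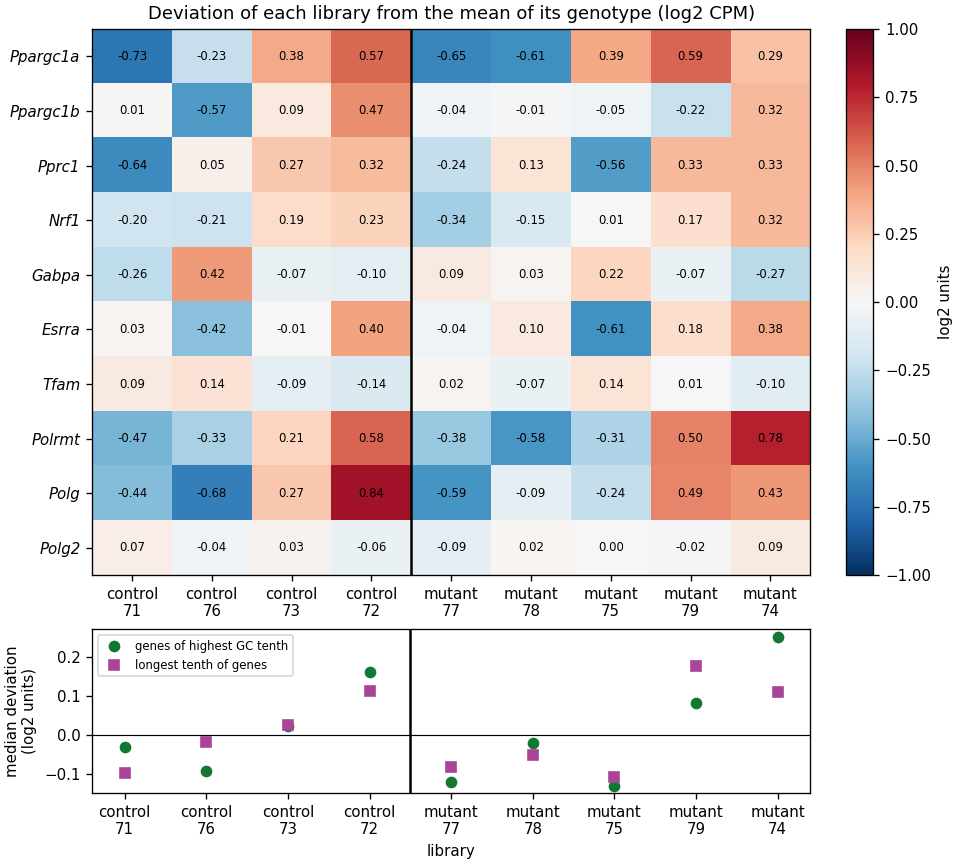
Upper panel, deviation of each library from the mean of its genotype for each regulator (log2 CPM, red above, blue below, libraries grouped by genotype). Lower panel, median deviation of the 10% of genes with the highest GC content and of the longest 10% (log2 units): control replicate 72 (0.16) and mutant replicate 74 (0.25) are highest for GC content, and mutant replicate 79 (0.17) is highest for length.

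Several genes whose products work with these regulators were higher in mutant cells. Of 24 tested genes for partners, upstream regulators and corepressors of the PGC-1 family, 8 were higher and 1 lower, with a median log2 fold change of 0.16. That is 37.5% of the list, beside 14.8% of all genes tested. *Pparg*, the nuclear receptor that gave PGC-1 its name, was low but rose from 0.795 ± 0.369 to 3.59 ± 1.42 CPM (log2 fold change 2.17, SE 0.40, edgeR adjusted p = 0.00477, 11 to 137 reads). *Yy1*, a partner of PGC-1alpha, rose from 23.8 ± 1.77 to 39.7 ± 5.15 CPM (0.74, SE 0.14, adjusted p = 0.00482). *Gabpb1*, which encodes the activating subunit that pairs with GABPA, rose from 64.7 ± 6.98 to 92.9 ± 8.25 CPM (0.52, SE 0.12, adjusted p = 0.0114), while *Gabpa* itself did not pass. *Mef2c*, a transcription factor that acts on the *Ppargc1a* promoter in muscle, rose from 34.2 ± 1.82 to 52.4 ± 8.73 CPM (0.61, SE 0.14, adjusted p = 0.0121), and its call was lost with the GC and length trend removed (0.32, adjusted p = 0.0938). These 4 genes, picked for their small adjusted p, had no overlap between genotypes. Over all genes tested 15.2% had none. With that trend removed 5 genes of the list were higher and 2 lower. The single lower gene was the mitochondrial deacetylase *Sirt3* (44.4 ± 10.2 to 31.0 ± 3.04 CPM, log2 fold change -0.51, SE 0.16, edgeR adjusted p = 0.0411), named after its value was seen. Its call held without control replicate 76 or mutant replicate 74 and was lost without any of the other 7 libraries (adjusted p from 0.0514 to 0.121).

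The other genes that maintain mtDNA were considered next. Of 25 tested genes for mtDNA replication, repair and nucleotide supply, 1 was higher and 1 lower, and the median log2 fold change was -0.15. This is 8% of the list, below the 14.8% of all genes tested. *Slc25a33*, a carrier that brings pyrimidine nucleotides into mitochondria, rose from 15.1 ± 1.89 to 34.5 ± 4.98 CPM (1.20, SE 0.16, edgeR adjusted p = 0.000758). *Mgme1*, an exonuclease that processes mtDNA ends, fell from 47.2 ± 3.72 to 33.6 ± 4.63 CPM (-0.49, SE 0.13, adjusted p = 0.0252). Neither gene overlapped between genotypes, beside 15.2% of all genes tested. The call of *Mgme1* was lost without control replicate 72, 73 or 76 or mutant replicate 77 or 78 (adjusted p from 0.0507 to 0.0768).

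Of 30 genes for mtDNA transcription and mitochondrial RNA processing, 1 was higher and 1 lower, with a median of 0.13. This is 6.67% of the list, below the 14.8% of all genes tested. *Trmt10c*, a subunit of mitochondrial RNase P that frees tRNAs from the primary transcript, rose from 74.2 ± 12.3 to 138 ± 43.5 CPM (0.89, SE 0.22, edgeR adjusted p = 0.0181) with overlap. Its call was lost without control replicate 72 (0.81, adjusted p = 0.0555) or 73 (0.85, adjusted p = 0.0621). *Fastk*, which encodes a protein of mitochondrial RNA granules, fell from 101 ± 6.12 to 74.2 ± 6.82 CPM (-0.45, SE 0.11, adjusted p = 0.0161) without overlap, and its call was lost without control replicate 73 (-0.42, adjusted p = 0.0614) and with the GC and length trend removed (-0.26, adjusted p = 0.0521).

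The classical target genes were taken as 2 lists. Of 23 nuclear genes known for NRF1 or GABPA sites in their promoters, 1 passed (4.35%, beside 14.8% of all genes tested) and the median was 0.05. The gene that passed was *Tomm20*, the import receptor of the outer membrane, which rose from 198 ± 29.5 to 328 ± 73.2 CPM (0.72, SE 0.17, edgeR adjusted p = 0.0145) without overlap. Without control replicate 73 it did not pass (0.70, adjusted p = 0.0515). Of 17 tested metabolic targets of PGC-1alpha and ESRRA, 1 was higher and 3 were lower (23.5%, beside 14.8% of all genes tested), with a median of -0.10. *Pdk4*, the kinase that shuts pyruvate dehydrogenase, rose from 19.6 ± 2.11 to 41.6 ± 6.43 CPM (1.09, SE 0.15, adjusted p = 0.000993). *Ucp2*, an uncoupling protein family member, fell from 367 ± 52.0 to 178 ± 23.6 CPM (-1.05, SE 0.13, adjusted p = 0.000596), and *Slc25a20*, the carnitine carrier of fatty acid oxidation, fell from 43.1 ± 4.13 to 27.3 ± 2.61 CPM (-0.66, SE 0.13, adjusted p = 0.00564). *Cat*, the peroxisomal catalase, fell from 200 ± 19.2 to 154 ± 16.3 CPM (-0.37, SE 0.12, adjusted p = 0.0451), a call that was lost whichever 1 library was left out. Each of these 4 targets, named because they passed, was without overlap between genotypes, as were 15.2% of all genes tested.

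**Figure D5:**
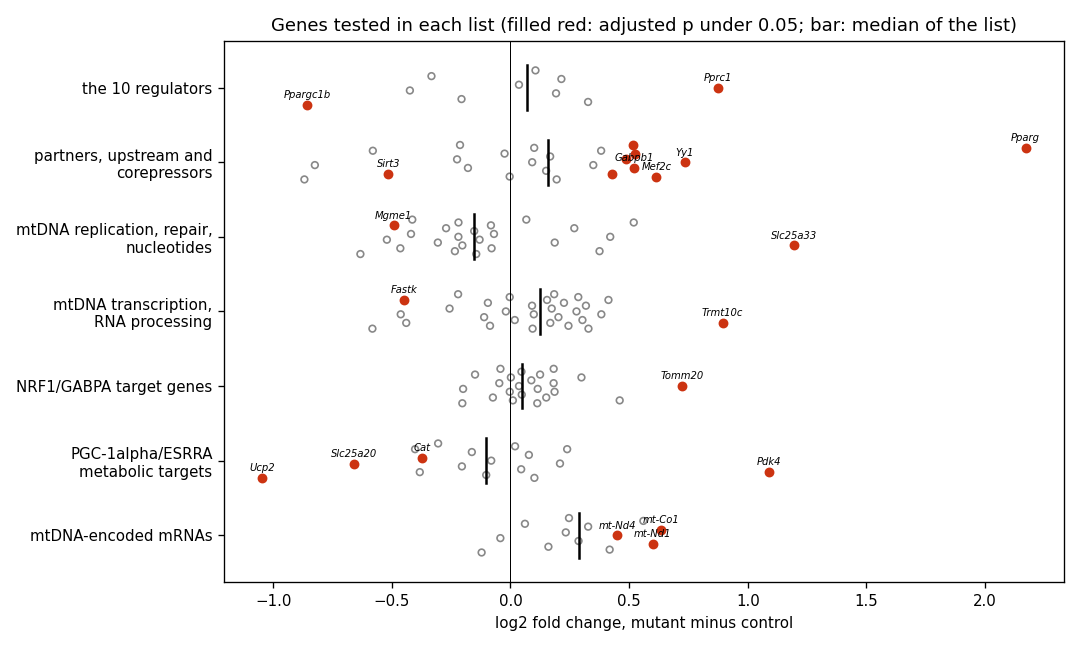
Log2 fold change, mutant minus control (x axis), of every tested gene in the list of 10 regulators and in 6 lists of related genes. Filled red points have adjusted p under 0.05, up to 4 of them and all falls are named, and bars mark the list medians, which lie between -0.15 and 0.29.

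Of the 13 mRNAs encoded in mtDNA, which POLRMT and TFAM transcribe, 3 were higher and none lower by edgeR (23.1%, beside 14.8% of all genes tested). An unadjusted p under 0.05 was found for 4 of 13, and for 31.4% of all genes. Of the 13 log2 fold changes 11 were positive, with a median of 0.29. These 13 signs include *mt-Nd3*, *mt-Nd4l* and *mt-Atp8*, which stood at 1.95, 0.461 and 1.19 CPM in control cells. There *mt-Co3*, *mt-Nd6*, *mt-Co2* and *mt-Atp6* stood at 119, 101, 41.0 and 38.5 CPM, and the rest at 529 CPM or more. Whether reads of all 13 mRNAs were counted equally fully was not tested, so their counts may not reflect their relative amounts. *mt-Co1*, a subunit of complex IV, rose from 4277 ± 661 to 6630 ± 1085 CPM (0.63, SE 0.15, edgeR adjusted p = 0.0160). *mt-Nd1* rose from 1470 ± 197 to 2228 ± 436 CPM (0.60, SE 0.16, adjusted p = 0.0236) and *mt-Nd4* from 858 ± 121 to 1171 ± 102 CPM (0.45, SE 0.12, adjusted p = 0.0295), both subunits of complex I. With the GC and length trend removed *mt-Co1* alone was called, and *mt-Nd1* (0.27) and *mt-Nd4* (0.14) did not pass. Without control replicate 73 none of the 3 passed (edgeR adjusted p from 0.0573 to 0.0919), *mt-Nd1* and *mt-Nd4* also did not pass without control replicate 72 or mutant replicate 77 or 78, nor did *mt-Nd4* without mutant replicate 75 (adjusted p from 0.0555 to 0.0836). Those with the most counts of the 13 were *mt-Co1* and *mt-Cytb*. The latter stood at 4211 ± 719 and 4705 ± 725 CPM (0.16, SE 0.15, edgeR adjusted p = 0.506). Summed over the 13 mRNAs, mtDNA-encoded reads made up 1.48, 1.11, 1.31 and 1.28% of all counts in control and 1.44, 1.78, 1.78, 1.70 and 1.43% in mutant libraries. Control replicate 71 lay above mutant replicates 74 and 79, so the genotypes overlapped. The means were 1.29 ± 0.153% and 1.63 ± 0.177%, a difference of 0.332 percentage points (2-sided exact permutation test, p = 0.0476). The difference was positive with any 1 library left out (0.270 to 0.394 points), but the exact permutation p was then 0.0357 without control replicate 71 and 0.0571 to 0.0857 without any other library. Poly(A) selection and cDNA amplification preceded these counts, and mtDNA copy number was not measured.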

How the data were processed

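RNA was sequenced from sorted cells of 4 control and 5 mutant kidney preparations, 1 library each. Per the labels, cDNA was amplified from low-input RNA with poly(A) selection and no strand information. The authors deposited read counts per gene for each library, which were used here as they stand, and FPKM values, which equal counts divided by gene length and summed counts (recomputed within 0.1% for 100% of genes) and which were used only for levels. STAR, DESeq2 and mm10 are named in the submitters' processing notes without a version or a role, the counter is not given in the sources used here, and the supplementary methods of the study were not read. The authors' mean signal per genotype, fold change and p-value columns were not used.

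The deposited counts went into edgeR 4.0.16 under R 4.3.3 (filterByExpr, 14990 genes kept; TMM; robust quasi-likelihood test; Benjamini-Hochberg adjustment over all genes, threshold 0.05). The 95% interval uses the standard error and the total degrees of freedom of the test, which include a part shared across genes. For 1 value per library, a 2-sided exact permutation test ran over all 126 assignments of 4 control labels. No list was tested as a set. The alternatives were limma-voom with quality weights per sample (limma 3.58.1), DESeq2 1.42.0, upper-quartile or RLE factors, a filter of 1 count in any library or of 10 counts in all, a model with 1 surrogate variable (sva 3.50.0) or with Y-linked expression as covariate, each library left out in turn and, added after the data were seen, removal by offsets of a per-library spline trend (4 degrees of freedom) on GC content and gene length, known for 14774 (98.6%) of the genes tested. Counting error is small for members with many reads, such as *Tfam* (2084 to 2675 per library). It is a larger part of the spread for those with few, such as *Esrra* (36 to 107), *Ppargc1b* (99 to 331) and *Polg2* (233 to 316).

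Gene positions match GENCODE M21 (GRCm38), with the start of *Polg* 2560 bases and that of *Ppargc1a* 1 base away. All exon overlaps are percentages of GENCODE M21 exon bases, and the exons behind the counts may differ. Promoter sequences are from RefSeq. Genes were matched by symbol, and *Peo1* and *Mterfd1* are older symbols in the table. The members and the lists were chosen with earlier results of these data known. The genes named are the members, *Uqcrq*, the 4 genes of each list with the smallest adjusted p among those past the threshold, genes overlapping a member, and the cell type markers *Six2*, *Ret* and *Wnt9b*. *Sirt3*, *mt-Cytb*, *mt-Nd3*, *mt-Nd4l*, *mt-Nd6*, *mt-Co2*, *mt-Co3*, *mt-Atp6* and *mt-Atp8* lie outside this rule and were named after their values were seen.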

Additional observations from a re-analysis of the deposited data

How the results depend on the processing

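No paired analysis was possible because the replicate numbers 71 to 79 are all different and match no control with a mutant library. Each result was recomputed under 18 alternatives, 9 of which left out 1 library. *Esrra*, *Tfam* and *Polg2* kept their direction and did not pass the threshold under any of them, and *Uqcrq* passed under all (-2.26 to -2.06 with 1 library left out). With 1 library left out, the log2 fold change was -1.01 to -0.68 for *Ppargc1b*, 0.70 to 0.99 for *Pprc1*, 0.019 to 0.42 for *Ppargc1a*, -0.66 to -0.20 for *Polrmt*, 0.24 to 0.50 for *Gabpa*, -0.051 to 0.11 for *Nrf1* and -0.39 to 0.14 for *Polg*. Limma-voom gave -0.17 for *Ppargc1a*, -0.14 for *Nrf1*, 0.41 for *Gabpa* and -0.78 for *Polrmt*, and thus 2 higher and 2 lower members. Removal of the GC and length trend gave -0.052 for *Ppargc1a* and -0.032 for *Nrf1*. A surrogate variable gave 0.28 for *Polg* and -0.67 for *Ppargc1b* and the Y-linked covariate 0.13 and -0.78, and 0 lower members passed with either. Leaving out 1 library gave 0 to 2 higher and 0 to 1 lower members. Over all genes, 1760 (DESeq2), 2403 (limma-voom), 2436 (unadjusted p) and 409 (absolute log2 fold change of at least 1) were higher, 2455, 2273 and 390 lower under the last 3, and 555 to 1603 higher and 491 to 1533 lower with 1 library left out.

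In the list of partners, at least 10 counts in every library gave 2 lower genes, removal of the trend 5 higher and 2 lower, and 1 library left out 4 to 8 higher and 0 to 1 lower. In the list of mtDNA replication, RLE gave 2 higher, upper-quartile normalization 2 lower, DESeq2 and the surrogate variable 2 higher and 2 lower each, limma-voom 4 and 4, the Y-linked covariate 3 higher, removal of the trend 3 and 3, and 1 library left out 1 to 3 higher and 0 to 4 lower. In the list of mtDNA transcription, DESeq2 gave 2 higher, limma-voom 4 higher and 3 lower, the surrogate variable 2 lower, removal of the trend 2 higher, and 1 library left out 0 to 3 higher and 0 to 2 lower. For NRF1 and GABPA targets limma-voom gave 3 higher, removal of the trend 2, and 1 library left out 0 to 1, and for PGC-1alpha and ESRRA targets limma-voom gave 2 higher. Of the mtDNA-encoded mRNAs limma-voom called 6 higher, removal of the trend 1, and 1 library left out 0 to 5. Their share of counts differed by 0.270 to 0.394 percentage points with 1 library left out. The cause of these shifts was not tested. No alternative moved the median log2 fold change of all genes by more than 0.1. Depth limits *Esrra* most, with 36 to 107 reads per library.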
